A study of Mus musculus with 2 samples.

Results

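Lymphocytes leave lymph nodes and tissues by sensing sphingosine-1-phosphate (S1P), and the genes described here encode the receptors for it, the surface protein CD69 that antagonizes one of those receptors, and RGS proteins, which shorten signaling downstream of the receptors. The list holds 10 genes, *S1pr1*, *S1pr2*, *S1pr4*, *S1pr5*, *Cd69*, *Rgs1*, *Rgs2*, *Rgs10*, *Rgs14* and *Rgs16*, out of 19938 genes with a value. It was put together with the values of these same arrays known, and the probe set of each gene was chosen by its highest mean signal, so what follows is a description with no test. A probe set with a single gene symbol was found for 9 of the 10 genes. *Rgs10* was matched to none and is not analysed here.

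The data are 2 arrays of CD3+CD4+ T cells sorted by FACS from pancreatic lymph nodes (PLN) of BDC mice, which are NOD mice with a transgenic T cell receptor specific for a β cell antigen, so that most of their CD4+ T cells share 1 specificity. One pool came from mice given ND αCD4, a nondepleting rat antibody to CD4 (clone YTS177), and the other from animals that received the isotype control Ab (clone 2A3), both in vivo, 48 hours before the sort. The labels give 8-week-old mice and 1 mg of antibody, and the methods give a higher dose range for the control Ab than for ND αCD4 over all experiments. All mice carry the BDC receptor, which the labels and the paper number differently, and the methods state that PLN of 3 mice were pooled.

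With 1 array in each group there is no replicate error and no p value, the number of arrays limits the precision, and a difference between pools of mice cannot be told apart from an effect of treatment. Signals are the log2 values deposited for each probe set, and a difference is a log2 ratio, ND αCD4 minus isotype control Ab. A gene counts as detected when at least 1 array is above the 95th percentile of its probe sets for olfactory and vomeronasal receptors (7.56 in the ND αCD4 array and 7.64 in the isotype control array), which 13222 genes were. The median log2 ratio over all detected genes was -0.01, and the middle 95% of them lay between -0.39 and 0.28. As a partial technical yardstick, 2 probe sets of the same gene differed in log2 ratio by 0.13 (root mean square, 550 genes). Both are read on the same 2 arrays, so this leaves out all differences between mice, sorts, RNA samples and arrays. T cell markers were bright, with *Cd3e* at 13.78 in the ND αCD4 array and 13.76 in the isotype control array, and *Cd4* at 13.48 and 13.38 in the same order.

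S1P is abundant in blood and lymph and scarce within tissue, and a T cell that carries S1PR1 follows this gradient out of the node. After antigen recognition, CD69 binds S1PR1 at the surface and takes it down, and transcription of *S1pr1*, which KLF2 drives, is shut off. S1PR1 signals through Gi proteins. RGS proteins speed the hydrolysis of GTP by Gα subunits, mostly those of the Gi and Gq classes, and so shorten signals from S1P and chemokine receptors.

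The 9 measured genes differed in direction. *Rgs2* was higher in T cells of ND αCD4-treated mice, *S1pr4* and *S1pr1* were higher by smaller amounts, *Rgs16* and *Cd69* were lower, and *Rgs14*, *S1pr5*, *Rgs1* and *S1pr2* had log2 ratios between -0.09 and 0.13. All 9 exceeded background in both arrays. The log2 ratio was above 0 in 6 and below 0 in 3, with a median of 0.08. Of all detected genes, 46.7% had a log2 ratio above 0. At least 1.5-fold higher was 1 member, *Rgs2*, against 0.212% of all detected genes, and none was at least 1.5-fold lower, against 1.01%. At least 25% higher were *Rgs2*, *S1pr4* and *S1pr1*, against 1.51% of detected genes, and at least 20% lower, the same fold in the other direction, was *Rgs16*, against 3.89%. None passed 2-fold, where the shares over all detected genes were 0.0151% higher and 0.189% lower. As the list was drawn up with this contrast in view, nothing is read from these counts.

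**Figure D1:**
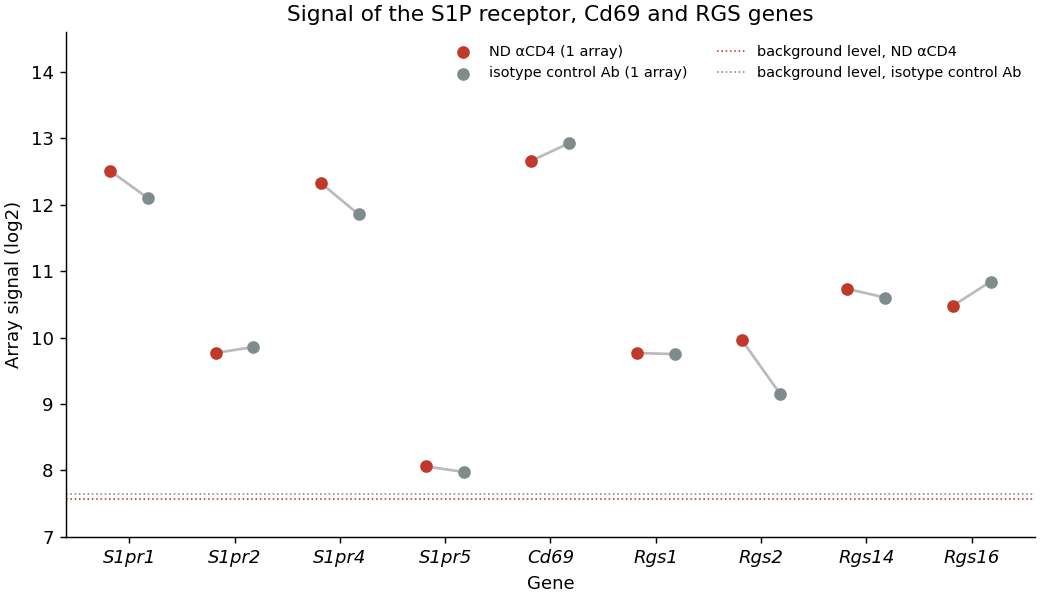
Array signal (log2) of the 9 measured genes in the ND αCD4 array (red) and the isotype control array (gray), 1 array each, lines linking the pair of values of every gene and dotted background levels. *Rgs2* has the steepest line, at 9.96 and 9.16, and *S1pr5* lies nearest to background. Probes differ between genes, so heights compare arrays within a gene and not genes.

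Of the receptors, *S1pr1* encodes the one through which T cells exit lymph nodes. Its signal was 12.51 in the ND αCD4 array and 12.10 in the isotype control array. The ND αCD4 array was the higher by a log2 ratio of 0.41, or 1.33-fold, which ranked 88 of the 13222 detected genes counted from the highest. *S1pr4* encodes a receptor found mainly on lymphocytes and other blood cells, and its signal was 12.33 in the ND αCD4 array and 11.85 in the isotype control array. This was a log2 ratio of 0.47, or 1.39-fold, at rank 55. The log2 ratios of *S1pr4* and *S1pr1* differed from each other by 0.06, less than the difference between probe sets of 1 gene, so their order is not resolved. The study describes both genes as induced in its expression data, so their direction here is not independent evidence.

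*S1pr2* encodes a receptor that couples to G12/13 and restrains migration, and in lymph nodes it is known for keeping germinal center B cells and follicular helper T cells in place. Its signal was 9.77 in the ND αCD4 array and 9.86 in the isotype control array, a log2 ratio of -0.09. *S1pr5* encodes a receptor used by natural killer (NK) cells and some effector T cells. Its signal was 8.06 in the ND αCD4 array and 7.97 in the isotype control array, a log2 ratio of 0.08, and it lay only 0.50 above background in the ND αCD4 array and 0.33 above it in the isotype control array. The remaining receptor gene, *S1pr3*, known mostly from endothelium and muscle, did not exceed background in either array (7.22 in the ND αCD4 array and 7.27 in the isotype control array). The receptors thus split, with *S1pr1* and *S1pr4* above the middle 95% of detected genes and *S1pr2* and *S1pr5* within it, and the log2 ratio of *S1pr1* exceeded that of *S1pr2* by 0.50.

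Markers of other cells that use these receptors were read in the same arrays. The 2 CD8 genes were both higher after ND αCD4, *Cd8a* at 10.39 against 9.67 in the isotype control array and *Cd8b1* at 11.83 against 11.38. Their log2 ratios were 0.72 and 0.45, at ranks 16 and 64 counted from the highest. Their summed signal was 12.28 in the ND αCD4 array and 11.76 in the isotype control array (log2). Of 6 NK cell markers, 2 exceeded background in at least 1 array, *Klrd1* (8.19 in the ND αCD4 array, 7.34 in the isotype control array) and *Gzma* (8.71 and 8.28, in that order). Their log2 ratios were 0.85 and 0.43, at ranks 7 and 76, with *Klrd1* below background in the isotype control array. The defining marker *Ncr1* was below background in both arrays. The summed signal of all 6 NK cell markers was 10.03 in the ND αCD4 array and 9.51 in the isotype control array. Of 5 measured B cell markers, 4 were detected, each with a log2 ratio above 0 and a median of 0.12. Of 5 follicular helper T cell markers, 4 were detected, 1 above 0 and 3 below 0, with a median of -0.12. The part of all these cells in the values of *S1pr5*, *S1pr4*, *S1pr1* and *S1pr2* was not tested. Endothelial cells also express *S1pr1* strongly. Of 6 endothelial markers, *Kdr*, *Lyve1*, *Prox1* and *Tek* did not exceed background in either array, *Cdh5* was at 7.86 in the ND αCD4 array and 7.80 in the isotype control array, just above background, and *Pecam1*, which T cells express too, had a log2 ratio of 0.10. The summed signal of the 6 was 12.21 in the ND αCD4 array and 12.13 in the isotype control array. In sorted pools such as these, more cells with a transcript and more of it in each cell cannot be told apart. *Mki67*, which marks cycling cells, was at 8.94 in the ND αCD4 array and 10.22 in the isotype control array, and its part in the receptor values was not tested.

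*Cd69* encodes the C-type lectin that appears on T cells within hours of stimulation and that also marks tissue-resident cells. Its signal was 12.66 in the ND αCD4 array and 12.93 in the isotype control array. This was a log2 ratio of -0.27, or 1.20-fold lower, within the middle 95% of detected genes and at rank 747 counted from the lowest. *S1pr1* and its antagonist differed in opposite directions, and the log2 ratio of *S1pr1* exceeded that of *Cd69* by 0.68, a 1.60-fold shift of *S1pr1* relative to *Cd69* between the arrays.

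Genes of early activation and of the type I interferon response, both of which are known to accompany *Cd69* induction, mostly had log2 ratios below 0. Those that passed 1.5-fold were all early activation genes. Of 20 early activation genes, all detected, 18 had a log2 ratio below 0 and 2 above 0, with a median of -0.26. At least 1.5-fold lower were 4 of them, against 1.01% of all detected genes, and none was 1.5-fold higher, against 0.212%. The 4 lower genes were *Irf4*, a transcription factor that scales with T cell receptor signal, at a log2 ratio of -1.12, *Cd83*, a surface protein of activated cells, at -0.77, the nuclear receptor gene *Nr4a3* at -0.68, and *Il2ra*, the IL-2 receptor α chain, at -0.59, which fell short of 1.5-fold under each other scaling and left 3. Of 15 measured interferon response genes, 14 had a log2 ratio below 0 and 1 above 0. Their median was -0.15, and none reached 1.5-fold in either direction. *Mx1* at -0.44 and *Mx2* at -0.43, both antiviral GTPases, were the lowest, followed by *Rtp4* at -0.33 and *Isg20*, an exonuclease, at -0.31. *Cd69* lay near the median of the activation list, which was drawn up as genes that move with *Cd69*. The study also reports activation genes as lower in these samples. Neither the place of *Cd69* nor the direction of the list is therefore independent evidence.

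**Figure D2:**
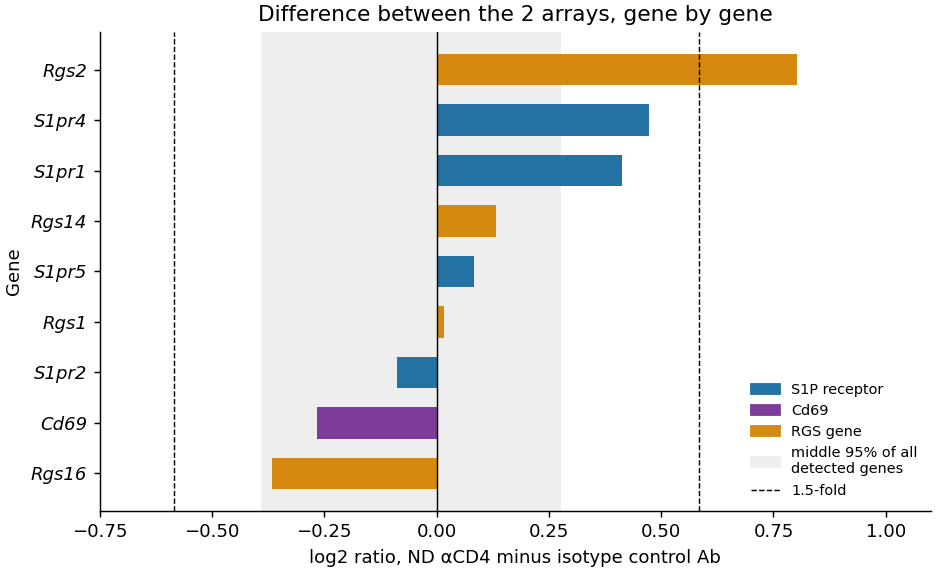
Log2 ratio (ND αCD4 minus isotype control Ab) of the 9 measured genes, ordered from the highest, with the middle 95% of all detected genes shaded and 1.5-fold dashed; bars start at 0 and there are no error bars, as each group has 1 array. *Rgs2*, *S1pr4* and *S1pr1* end to the right of the shading at 0.80, 0.47 and 0.41, and *Rgs16* ends inside it at -0.37.

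Among the RGS genes, *Rgs2* differed most. *Rgs2* encodes a small RGS protein with a preference for Gq, and its transcript is known as an immediate early gene of T cell stimulation. Its signal was 9.96 in the ND αCD4 array and 9.16 in the isotype control array. This was a log2 ratio of 0.80, or 1.74-fold, at rank 8 of the detected genes. *Rgs16* encodes an RGS protein for Gi and Gq that activated T cells induce, and it went the other way. Its signal was 10.48 in the ND αCD4 array and 10.84 in the isotype control array, a log2 ratio of -0.37, or 1.29-fold lower, at rank 387 counted from the lowest. The log2 ratio of *Rgs2* exceeded that of *Rgs16* by 1.17.

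*Rgs1* encodes a regulator of Gi that in mice limits lymphocyte responses to chemokines and S1P. Its signal was 9.77 in the ND αCD4 array and 9.75 in the isotype control array, a log2 ratio of 0.02. *Rgs14* encodes a larger RGS protein that also binds Gαi in its GDP-bound form, and its signal was 10.73 in the ND αCD4 array and 10.60 in the isotype control array, a log2 ratio of 0.13. The SD of log2 ratios within a gene with 2 probe sets was 0.09, and the ratio of *Rgs1* was smaller than this and that of *Rgs14* larger. In the order of log2 ratios, from *Rgs2* through *S1pr4*, *S1pr1*, *Rgs14*, *S1pr5*, *Rgs1*, *S1pr2* and *Cd69* to *Rgs16*, the neighbors *Rgs2* and *S1pr4*, *S1pr1* and *Rgs14*, and *S1pr2* and *Cd69* differed by more than the 0.13 between 2 probe sets of a gene, and the other neighbors did not.

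The other genes named *Rgs* were all less than 25% higher and less than 20% lower, limits that 1.51% and 3.89% of all detected genes passed. Of 16 such genes outside the list, 6 were detected, 4 with a log2 ratio above 0 and 2 below 0, with a range of -0.11 to 0.21 and a median of 0.12. The highest was *Rgs11*, described mainly from retina and brain, at 8.68 in the ND αCD4 array and 8.48 in the isotype control array. *Rgs19*, which encodes a Gi regulator, was at 12.13 in the ND αCD4 array and 11.99 in the isotype control array, and *Rgs3*, which acts on Gi and Gq, at 10.89 and 11.00 in the same order. *Axin2*, a Wnt target whose protein carries an RGS domain but scaffolds β-catenin destruction, had a log2 ratio of 0.45 (10.35 in the ND αCD4 array and 9.90 in the isotype control array). *Rgs2* was thus the RGS gene with the highest log2 ratio and *Rgs16* the one with the lowest among those detected.

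**Figure D3:**
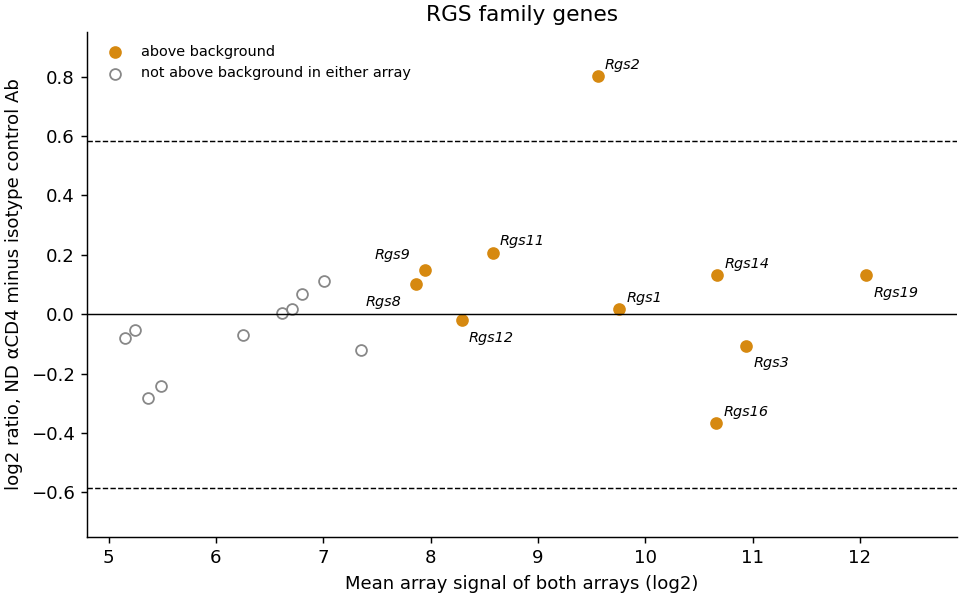
Log2 ratio (ND αCD4 minus isotype control Ab) against mean signal of both arrays (log2) for the RGS genes with a value, with detected genes filled and named, genes not above background open, and 1.5-fold dashed. *Rgs2* at 0.80 is the sole point beyond 1.5-fold, and *Rgs16* at -0.37 is the lowest point.

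The measured genes directly next to *Rgs2*, *S1pr4*, *S1pr1*, *Rgs16* and *Cd69* on the chromosome had smaller log2 ratios in size than these 5 did. *Rgs2*, *Rgs13*, *Rgs1*, *Rgs21* and *Rgs18* follow each other on chromosome 1 in the GRCm38.p6 annotation. Of these, *Rgs2* was at a log2 ratio of 0.80 and *Rgs1* at 0.02, and *Rgs13*, *Rgs21* and *Rgs18* did not exceed background in either array. *Rgs16* and its neighbor *Rgs8* lie elsewhere on the same chromosome, with log2 ratios of -0.37 and 0.10. Next to *S1pr1* on chromosome 3, *Dph5*, which acts in diphthamide synthesis, was at 0.07, and next to *S1pr4* on chromosome 10, *Ncln* was at 0.22 and the Gα gene *Gna15* at -0.11. Next to *Cd69* on chromosome 6, the lectin gene *Clec2d* was at 0.06.

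RefSeq promoter sequences (GRCm38.p6) were at hand for *S1pr2*, *S1pr4*, *S1pr5*, *Rgs2*, *Rgs10* and *Rgs16*, 6 of the 10 genes. The 250 bases before the transcription start are printed for the receptor gene and the RGS gene with the highest log2 ratios and for the gene with the lowest, to set genes that differed in opposite directions side by side. Capitals mark every match on either strand to 4 motifs, namely CACCC (the box bound by KLF proteins), GTAAACA (forkhead proteins such as Foxo1), TGANTCA (AP-1) and TGACGTCA (the cAMP response element), none of which overlapped another in these windows.
*Rgs2* (chr1:144004150-144004399, - strand): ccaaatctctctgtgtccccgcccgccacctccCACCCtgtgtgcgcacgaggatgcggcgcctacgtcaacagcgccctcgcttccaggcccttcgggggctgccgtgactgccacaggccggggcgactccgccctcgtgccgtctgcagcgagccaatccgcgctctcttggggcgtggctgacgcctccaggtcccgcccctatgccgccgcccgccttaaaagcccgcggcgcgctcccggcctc
*S1pr4* (chr10:81500138-81500387, - strand): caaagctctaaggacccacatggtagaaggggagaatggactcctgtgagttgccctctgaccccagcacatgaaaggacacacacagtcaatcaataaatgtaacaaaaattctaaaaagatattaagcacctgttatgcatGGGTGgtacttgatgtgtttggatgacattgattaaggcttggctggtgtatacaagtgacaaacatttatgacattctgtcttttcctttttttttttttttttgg
*Rgs16* (chr1:153740103-153740352, + strand): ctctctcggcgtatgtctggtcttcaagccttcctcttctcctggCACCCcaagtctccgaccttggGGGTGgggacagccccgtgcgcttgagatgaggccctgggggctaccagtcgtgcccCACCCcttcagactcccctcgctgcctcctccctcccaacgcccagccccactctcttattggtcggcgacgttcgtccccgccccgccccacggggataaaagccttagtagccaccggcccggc

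The capitals in these windows are CACCC or its complement GGGTG. The *S1pr4* window held 1 such match, starting at position -107 from the transcription start, the *Rgs2* window held 1, at -217, and the *Rgs16* window held 3. A CACCC match is common, since 52.0% of 32851 windows of this length hold one. No forkhead or AP-1 letters stood in the windows of the 6 genes (3.17% and 6.75% of all windows hold them), and the cAMP response element stood once, in that of *S1pr2* (1.55% of all windows). The *S1pr4* window differed in composition, with 38.8% G and C and no CpG, as in 7.87% of all windows. The windows of *Rgs2* and *Rgs16* had 72.4% and 66.4% G and C with 30 and 17 CpG, and those of *S1pr2*, *S1pr5* and *Rgs10* had 59.2%, 69.2% and 76.4% G and C, against a median of 52.4% over all windows. A match of letters does not show binding, and a window with none says nothing about the factor.

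Genes that make, break down and carry S1P had small log2 ratios, as most detected genes did. Of 22 detected genes of S1P metabolism and transport, 14 had a log2 ratio above 0 and 8 below 0, with a median of 0.03. None was 25% higher or 20% lower, against 1.51% and 3.89% of all detected genes. The highest were the lipid exporter genes *Abca1* at 0.29 (10.53 in the ND αCD4 array and 10.23 in the isotype control array) and *Abca7* at 0.25, followed by *Asah1*, a lysosomal ceramidase that frees sphingosine, at 0.22 and *Spns2*, which exports S1P from endothelial cells, at 0.19. The kinase genes *Sphk1* and *Sphk2*, whose products make S1P, were at -0.08 and 0.10. *Sgpl1*, the S1P lyase that keeps tissue S1P low, was at 10.47 in both arrays.

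Genes of G protein signaling, which acts behind the receptors, were read next. Of 22 detected genes of G protein subunits and their helpers, 15 had a log2 ratio above 0 and 7 below 0. Their median was 0.03, and none was 25% higher or 20% lower, against 1.51% and 3.89% of all detected genes. *Gnai2*, the main Gi subunit of lymphocytes, was at 13.32 in the ND αCD4 array and 13.28 in the isotype control array, and *Gna13*, which S1PR2 uses, at 12.30 and 12.29 in the same order. The largest in size were *Ric8a*, a chaperone of Gα subunits, at 0.20, *Gpsm3*, a G protein modulator, at 0.18, *Gnb4*, a β subunit, at 0.15 and *Gng7*, a γ subunit, at -0.13. Of 9 detected genes of receptor kinases, arrestins and receptor trafficking, 8 had a log2 ratio above 0, against 46.7% of all detected genes. All 8 fell short of 1.5-fold, a size that 0.212% of all detected genes reached. *Arrb1*, which encodes β-arrestin 1, was the highest at 0.35, or 1.28-fold (11.07 in the ND αCD4 array and 10.72 in the isotype control array), followed by the ubiquitin ligase gene *Wwp1* at 0.22 and *Dnm2*, dynamin 2, at 0.15, while the kinase gene *Oxsr1* was the single one below 0, at -0.13.

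Genes of egress and homing mostly had log2 ratios above 0, as *S1pr1* did. Of 21 such genes, all detected, 17 had a log2 ratio above 0 and 4 below 0, with a median of 0.09. Over all detected genes, 46.7% were above 0. None of the 21 was past 1.5-fold, against 0.212% higher and 1.01% lower over all detected genes. *Klf2*, the activator of *S1pr1*, was the highest, at 11.58 in the ND αCD4 array and 11.08 in the isotype control array, a log2 ratio of 0.50. It was followed by *Rasgrp2*, an activator of the integrin switch Rap1, at 0.37, *Itgb7*, an integrin chain for gut homing, at 0.32 and *Foxo1*, which drives *Klf2*, at 0.20. The study displays *Foxo1*, *Klf2* and *Ccr7* from these samples, so their direction is not independent evidence. *Ccr7*, a chemokine receptor gene for entry into lymph nodes, was at 13.63 in the ND αCD4 array and 13.60 in the isotype control array, a log2 ratio of 0.03. Without them, 14 of 18 genes had a log2 ratio above 0, with a median of 0.09.

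**Figure D4:**
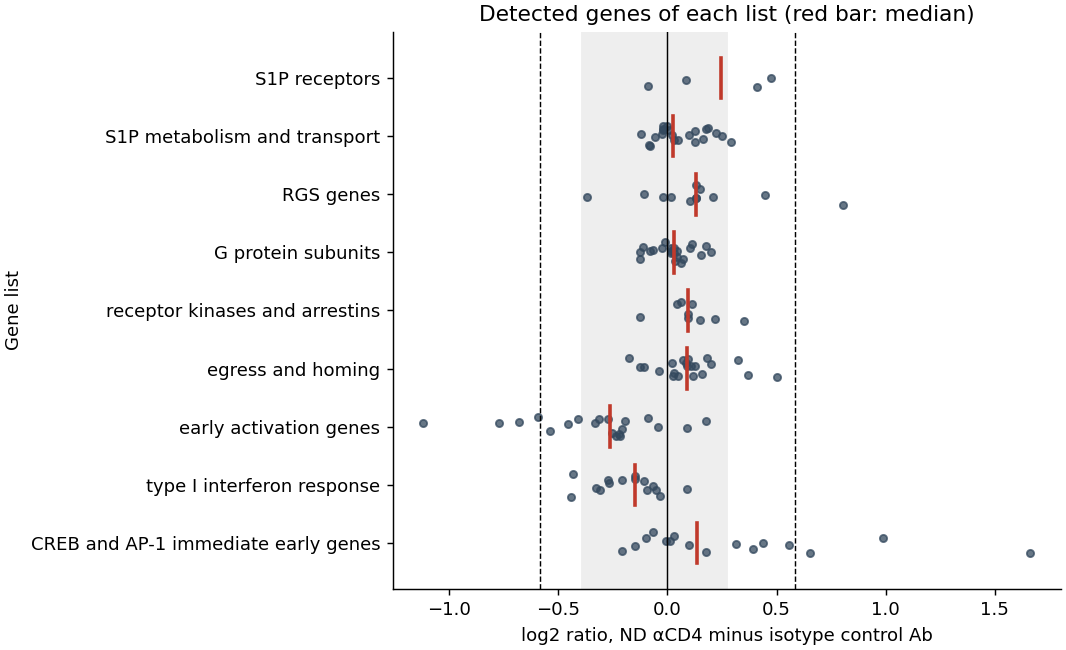
Log2 ratio (ND αCD4 minus isotype control Ab) of each detected gene, 1 point per gene, by list, with the list median as a red bar, the middle 95% of all detected genes shaded and 1.5-fold dashed; height within a list has no meaning. The S1P receptors have their median at 0.25 over 4 genes, the early activation genes at -0.26, and the RGS row includes *Axin1* and *Axin2*.

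Among other immediate early genes, those of the AP-1 and CREB group had their larger differences on the higher side. Of 16 genes of the AP-1 and CREB group, 11 had a log2 ratio above 0 and 5 below 0, with a median of 0.14, and 3 were at least 1.5-fold higher, against 0.212% of all detected genes, and none 1.5-fold lower, against 1.01%. The 3 higher genes were the AP-1 subunit genes *Jun* at 1.66 (11.78 in the ND αCD4 array and 10.11 in the isotype control array) and *Fos* at 0.65, and *Ppp1r15a*, a stress-induced phosphatase subunit, at 0.99. *Junb* was at 0.56, and it joins them, for 4 in all, when the arrays are centred on their medians. Outside the middle 95% of all detected genes were 7 of the 16, each of them higher, and the 5 below 0 lay within it. Genes of this group are also known to be induced by tissue handling, and its part in the value of *Rgs2* was not tested. Below 0 in this list was, for example, *Crem*, a CREB family gene, at -0.21. Immediate early genes of the early activation list mostly had log2 ratios below 0. The transcription factor genes *Nr4a3*, *Nr4a1*, *Egr2*, *Egr3* and *Egr1* were at -0.68, -0.54, -0.41, -0.33 and -0.25. Above 0 in that list were *Nr4a2*, which both lists hold, at 0.18 and *Ier2* at 0.09.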

How the data were processed

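The PLN CD4+ T cells of each group were measured on 1 array. Values are log2 signals of probe sets as deposited by the authors, made with Affymetrix Expression Console per the submitters' processing notes (version and normalization not given in the sources used here). A log2 scale was inferred from the range of 2.52 to 14.7 and the equal medians of 8.15. The probe set identifiers are those of an earlier mouse gene ST array than the paper names.

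Of 35557 probe sets, 21789 had 1 symbol, 1621 several and 12147 none, and only the first kind was named (21698 matched RefSeq by gene identifier). A gene with several probe sets was represented by the brightest on average. Background came from 1210 olfactory and vomeronasal receptor probe sets. Log2 ratios were read against a 1.5-fold size rule, and no test was run. The calculation was tested on simulated data.

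The genes and lists were chosen with earlier results of these data known. The text names all members, up to 4 detected genes per list with the largest log2 ratio in size and every listed gene past 1.5-fold. *Sphk1*, *Sphk2*, *Sgpl1*, *Gnai2*, *Gna13*, *Rgs19*, *Rgs3*, *Mki67*, *Ccr7*, *Crem*, *Nr4a1*, *Nr4a2*, *Egr1*, *Egr2*, the neighboring genes and the marker genes shown were chosen after their values were seen. So were *Egr3*, *Ier2* and *Gpr183*. Alternatives were centring on the median, quantile normalization, lowess correction (fraction 0.3, 3 iterations), a floor at the background level, averaging the probe sets of a gene, detection in both arrays, no filter, a 2-fold rule and a looser rule (25% higher or 20% lower). Scripts ran under Python 3.11.15 with pandas 2.3.3, numpy 2.4.6 and statsmodels 0.14.6, and figures were drawn with matplotlib 3.10.9.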

Additional observations from a re-analysis of the deposited data

How the results depend on the processing

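All 9 log2 ratios kept their sign under the 7 other settings of scaling, background, probe sets and filter, and the largest shift was 0.0350, less than the 0.09 SD of log2 ratios within a gene with 2 probe sets. *Rgs2* ranged from 0.80 to 0.84, *S1pr4* from 0.47 to 0.51, *S1pr1* from 0.41 to 0.45, *Cd69* from -0.27 to -0.23 and *Rgs16* from -0.37 to -0.33. Each member has 1 probe set above background in both arrays, so flooring, averaging probe sets and both filters could not move them. Only the size rule moved the counts, by its construction. At least 25% higher were 3 members and at least 20% lower was 1, and at 2-fold, 0 were higher. No paired analysis was possible because each group has 1 array, and for the same reason no replicate could be left out. The counts over the pathway lists under other scalings were added after seeing the data.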

Other observations

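Other G protein-coupled receptors of lymphocytes were read in the same way, with a list put together after the data were seen. Among its 28 detected genes, 14 were higher and 14 lower after ND αCD4, while 46.7% of all detected genes were higher. The median log2 ratio of the 28 was 0.00. None reached 1.5-fold, a size passed upward by 0.212% and downward by 1.01% of all detected genes. With shares this small, finding none among 28 genes says little. *Adgre5*, which encodes the adhesion receptor CD97, was at 13.23 in the ND αCD4 array and 12.96 in the isotype control array, a log2 ratio of 0.27. *Gpr132*, an orphan receptor gene, was at 12.06 in the ND αCD4 array and 11.83 in the isotype control array, and *Gpr183*, the oxysterol receptor that positions lymphocytes, at 10.85 and 10.80 in the same order. *Gpr34* had the highest log2 ratio, 0.50, with a signal of 7.59 in the ND αCD4 array, just above background, and of 7.09 in the isotype control array, below it. *Adgrg1*, an adhesion receptor gene known from human cytotoxic lymphocytes, had the lowest at -0.26.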
